A study of Mus musculus with 6 samples.

Results

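mmu_circRNA_45921 is a mouse circular RNA that was read on the array by a single probe, ASCRP4009404, which is 1 of the 14236 circRNA probes. It was chosen by 3 measured values, namely its array intensity, its difference between the groups on these arrays and the outcome of the study's own qRT-PCR measurement of it. The pairing of probe and name comes from the study's list of changed circRNAs, which names 20 probes. The array values that chose it are therefore given as a description, without a test. By qRT-PCR the study reported no significant difference between the groups for this circRNA. The qRT-PCR values are not used here.

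The study asked which circRNAs change in the hippocampus of aged mice with postoperative cognitive dysfunction (POCD), a decline of memory and attention after an operation. Hippocampal RNA of 6 male C57Bl/6 mice aged 18 months was hybridized in 1 colour, 1 array per mouse. The 3 POCD mice had a tibial fracture fixed with an intramedullary pin under isoflurane, with lidocaine and tetracaine used locally for pain afterwards. Tissue of both groups was taken on day 3, after behavioural tests that included fear conditioning with footshocks. Whether the 3 control mice were given isoflurane or the local anaesthetics is not stated in the sources used here. Surgery, anaesthesia and local pain relief thus cannot be told apart, and no behavioural score is tied to a single array. RNA came from whole hippocampus, in which fewer cells of a type and less RNA per cell cannot be told apart. No probe other than the 20 named ones is paired with a circRNA, and none with a host gene, so the tissue could not be checked against its marker genes.

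Circular RNAs form when the spliceosome joins a downstream splice donor to an upstream acceptor of the same transcript, which leaves a closed loop without a cap or a poly(A) tail. Lacking free ends, they resist exonucleases and are long-lived, and they are abundant in the brain, where many come from synaptic genes and accumulate with age. A probe that spans the back-splice junction reads the loop rather than the linear RNA of the same gene.

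All 6 arrays lay on 1 slide and were read in 1 scan, with 13999 to 14168 circRNA probes per array well above background. Counted as changed was a probe that differed at least 1.5-fold with an unadjusted p under 0.05. In limma, 682 of 14144 tested probes (4.82%) were lower in POCD by this rule and 257 (1.82%) were higher. No probe passed a Benjamini-Hochberg adjusted p of 0.05, while 2048 had an unadjusted p under 0.05. The methods' t-test gave 1140 at the unadjusted threshold and 0 after adjustment, and on the deposited values 36 probes (0.253%) were lower and 88 (0.618%) higher by the same rule, so the balance of directions turned.

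mmu_circRNA_45921 gave less signal on the POCD arrays than on the control arrays on average, but one array of each group had nearly the same level. Its processed signal, the background-subtracted intensity of the spot, was 25741 on POCD array 1, 53590 on POCD array 2 and 15697 on POCD array 3. In the controls it was 105124 on array 1, 49797 on array 2 and 130430 on array 3. The groups thus overlapped in processed signal, since POCD 2 was 1.08 times control 2, and the brightest array was 8.31 times the dimmest.

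None of the 6 spots was saturated, and none was marked as uneven or as an outlier. The median pixel signal was 26105, 52966 and 16035 in POCD and 105558, 50256 and 130175 in control. These medians were between 2.06% and 16.7% of the scanner's saturation value of 778128. The upper end of the scale therefore did not limit the readings of this circRNA.

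Each array was next set relative to the 75th percentile of its circRNA probes, so that differences in overall brightness cancel. On this log2 scale mmu_circRNA_45921 was at 6.26, 7.29 and 5.88 in POCD, by replicate, and at 8.44, 7.30 and 8.67 in control. POCD 2 and control 2, the highest of one group and the lowest of the other, were 0.0042 apart. The groups did not overlap by that margin alone, and 10.9% of the 14125 circRNAs with a value on every array were lower in POCD without overlap and 6.24% higher. The POCD mean was 6.48 ± 0.73 and the control mean 8.13 ± 0.74 (SD, n = 3 each). The difference of -1.66 on the log2 scale (SE 0.43, from the limma fit over all probes) is a level 3.16-fold lower in POCD.

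**Figure D1:**
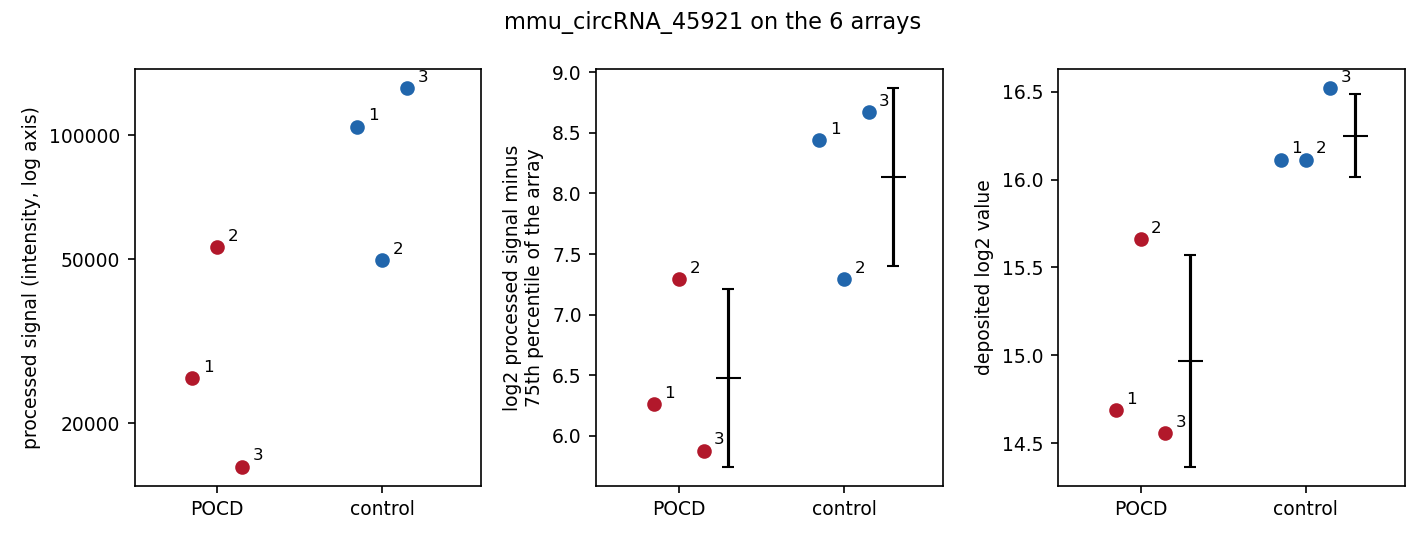
Signal of mmu_circRNA_45921 on the 3 POCD arrays and the 3 control arrays, as processed signal (left, log axis), as log2 signal relative to the 75th percentile of the array (middle) and as the log2 value deposited by the authors (right). Points are arrays, numbered by replicate, and bars are the mean and SD of a group (n = 3). POCD 2 and control 2 lie side by side on the left and in the middle, at 7.29 and 7.30, and are 0.45 apart on the right.

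The deposited log2 values of mmu_circRNA_45921 show a wider separation of the groups than the scanner signals do. They were 14.69, 15.66 and 14.56 for the POCD mice and 16.11, 16.11 and 16.52 for the controls. The POCD mean was 14.97 ± 0.60 and the control mean 16.25 ± 0.24 (SD, n = 3 each), which differ by -1.28 (SE 0.28). The nearest arrays of the 2 groups were 0.45 apart, and 7.48% of all 14236 probes were lower in POCD without overlap in these values. In the other direction it was 9.39%, so here the higher probes outnumbered the lower ones.

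The spread of the control arrays changed most between the scales. Control 1 had 2.11 times the processed signal of control 2, a difference of 1.14 on the scaled log2 scale, yet both have the same deposited value of 16.11. mmu_circRNA_45921 was the probe of rank 9 in deposited signal on both arrays. In the deposited table the probes of rank 1 to 13 have the same value at the same rank in all 6 columns, to within 1e-06 on the log2 scale. At these ranks a deposited value is thus set by the rank of the probe on its array. The values of POCD 1 and POCD 3, of rank 25 and 34, lie outside them. There the 6 columns ran from 14.69 to 14.90 and from 14.56 to 14.65.

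By rank, mmu_circRNA_45921 stood higher on every control array than on any POCD array. Among the 14236 probes it had the deposited rank 25, 13 and 34 in POCD and 9, 9 and 7 in control. Its rank in processed signal was 27, 13 and 36, and 9, 9 and 7, respectively. By its mean over all 6 arrays it was number 10. A probe's signal also depends on how well that probe hybridizes, so the rank is one of signal and not of RNA molecules.

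The circRNA took 0.292%, 0.586% and 0.242% of the summed circRNA signal on the POCD arrays. It took 1.06%, 0.606% and 1.26% on the control arrays. As with the scaled level, POCD 2 and control 2 were close to each other and the remaining arrays were far apart.

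The order of mmu_circRNA_45921 among its neighbours in mean signal over all 6 arrays turned with the group in the group means, though not on each array. In control its mean was above that of all 4 neighbours, by 0.12 and 0.18 for places 8 and 9 and by 0.40 and 0.42 for places 11 and 12. In POCD it was below all 4, by values of -1.11, -0.34, -0.37 and -0.37 in the same order. Over all arrays it differed from them by -0.49, -0.077, 0.018 and 0.024, with SDs of the paired difference of 0.89, 0.35, 0.48 and 0.54 (n = 6), which hold the group difference. Place 9 is ASCRP4008132. Place 10 is thus an average over both groups. Array by array, mmu_circRNA_45921 was higher than places 8 and 12 on 2 of 6 arrays and than places 9 and 11 on 3. It was chosen for its large difference and the neighbours for a like mean. The turn of the group means follows in part from that choice.

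mmu_circRNA_45921 varied more between arrays of one group than most probes did. Its pooled SD within groups was 0.73 on the log2 scale, against a median of 0.21 over all 14144 tested probes and of 0.26 over the 100 brightest. A larger SD was found for 205 tested probes (1.45%) and for 11 of the 100 brightest. Its difference was also far from the middle of the array, with 74 tested probes (0.523%) and 2 of the 100 brightest more negative.

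**Figure D2:**
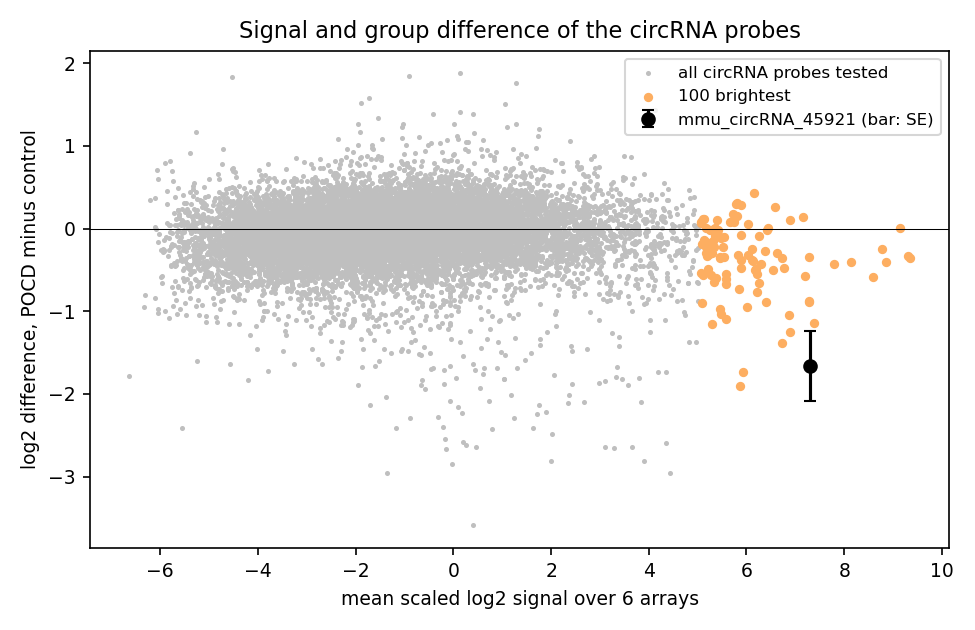
Mean scaled log2 signal over the 6 arrays (x axis) against the log2 difference of POCD minus control (y axis) for the 14144 circRNA probes tested (grey), the 100 brightest (orange) and mmu_circRNA_45921 (black, bar: SE). mmu_circRNA_45921 lies at -1.66, and the median of the 100 brightest is -0.33.

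The bright probes as a set also lay below 0 on this scale. Of the 100 brightest, mmu_circRNA_45921 included, 79 were lower and 21 higher in POCD, with a median difference of -0.33 and a range of -1.91 to 0.43. The median over all tested probes was -0.03. With quantile normalization and in the deposited values the median of the bright probes changed sign, to 0.081 and 0.041, while that of mmu_circRNA_45921 was -1.21 and -1.28.

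Several of the other bright probes followed mmu_circRNA_45921 from array to array. Of the other 99 among the 100 brightest, 30 (30.3%) had a Pearson r of at least 0.9 with it over the 6 arrays, against 7.71% of the 14124 other probes with a value. The median r was 0.83 among the bright probes and 0.06 over all. The 6 points of each r share a slide, a scan and the group difference. With each group's mean removed, 21 of the 99 bright probes (21.2%) and 4.27% of all probes had an r of at least 0.9. With quantile normalization the count among the bright probes was 5 (5.05%, against 1.95% of all probes). In the deposited values it was also 5 (5.05%, against 1.57% of all). The median r of the bright probes was then -0.30 and -0.16, respectively, and that over all probes -0.095 and -0.12. By Spearman correlation on the scaled values the count was 7 (7.07%, against 5.98% of all). The likeness thus depends on how the arrays were scaled and on the kind of correlation.

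**Figure D3:**
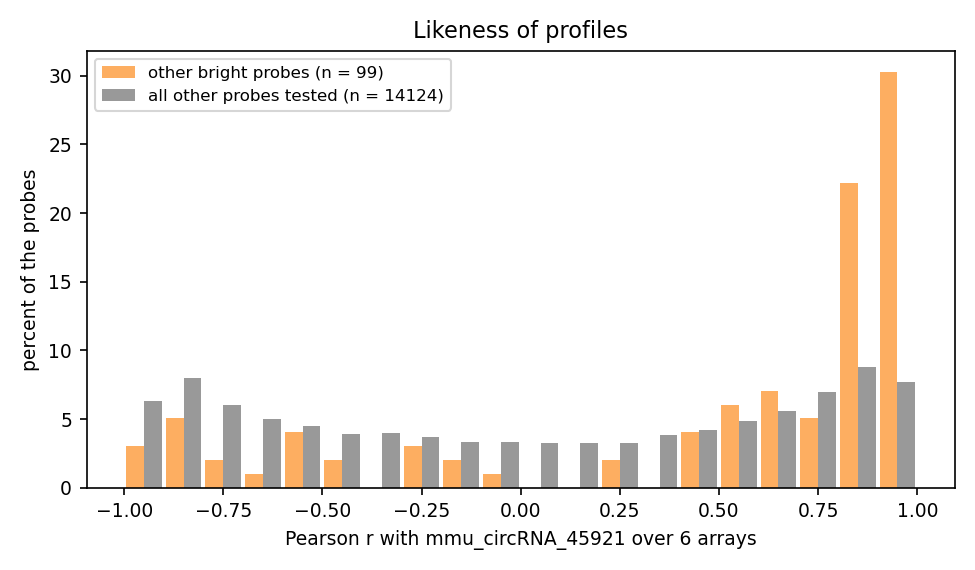
Pearson r with mmu_circRNA_45921 over the 6 arrays (x axis, in steps of 0.1) and the percent of probes in each step (y axis), for the other 99 bright probes (orange) and all other probes tested (grey). The step from 0.9 to 1 holds 30.3% of the bright probes and 7.71% of all.

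The closest bright probe was ASCRP4007241, number 20 by mean signal, which has no circRNA name here. Its scaled levels were 5.82, 6.69 and 5.58 in POCD and 7.62, 6.70 and 7.93 in control. Its r with mmu_circRNA_45921 was 0.9988, its difference was -1.39 (SE 0.36), and the gap between both probes varied by an SD of only 0.19 over the arrays. Like mmu_circRNA_45921 it had nearly equal levels on POCD 2 and control 2.

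ASCRP4008132, also unnamed, was at 6.51, 7.39 and 6.54 in POCD and at 8.15, 7.26 and 8.45 in control. Its r was 0.989 and its difference -1.14 (SE 0.34), and its groups overlapped, with POCD 2 above control 2.

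The third was mmu_circRNA_34414, number 43 by mean signal and named in the study's list. It was at 4.67, 5.77 and 4.75 in POCD and at 6.84, 5.95 and 7.61 in control, with an r of 0.979 and a difference of -1.73 (SE 0.42). Here control 3 was the highest array by a wider margin than for mmu_circRNA_45921.

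A like profile was not limited to bright probes. Among all tested probes, the 3 with the highest r were ASCRP4007241 and 2 much less bright ones of ranks 10834 and 7820. These 2 had r of 0.9989 and 0.998 and differences of -0.55 and -0.52. Of the 9 other circRNAs that the study's list names as lower, 5 had an r of at least 0.9. Among them mmu_circRNA_30227, number 1337 by mean signal, had an r of 0.995 and a difference of -1.51. Those circRNAs were listed for their difference between the same arrays, so a likeness between them follows in part from how they were chosen.

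**Figure D4:**
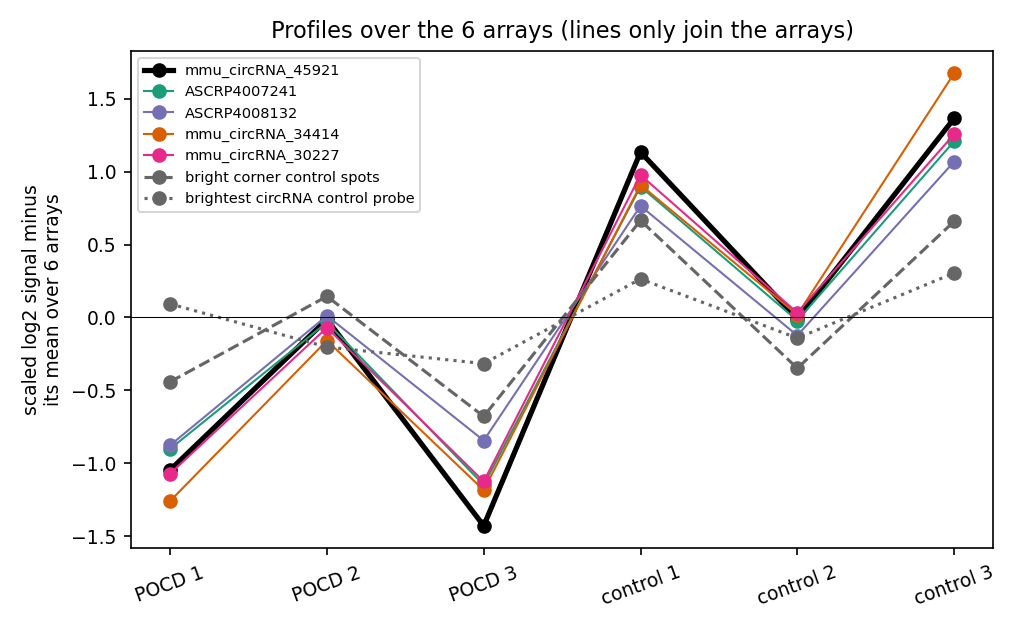
Scaled log2 signal minus its mean over the 6 arrays (y axis) on each array (x axis) for mmu_circRNA_45921, ASCRP4007241, ASCRP4008132, mmu_circRNA_34414, mmu_circRNA_30227, the bright corner control spots and the brightest circRNA control probe. Lines join the arrays of a probe and carry no order. The circRNA probes shown and the bright corner spots are lowest on POCD 1 and 3 and highest on control 1 and 3.

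Spots on the array that read no mouse circRNA of the set moved in the same order in part. The bright corner spots, control spots that orient the grid, were printed 14 times per array and averaged 6.57, 7.15 and 6.33 in POCD and 7.67, 6.66 and 7.67 in control, on the same scaled log2 scale. Their r with mmu_circRNA_45921 was 0.951 over the 6 arrays, and their group means of 6.68 ± 0.42 (SD, n = 3) and 7.33 ± 0.58 (SD, n = 3) differed by -0.65. The SD between the 14 spots of an array was at most 0.15. Of 11 bright replicated probes outside the circRNA set, which include circRNA control probes, 1 had an r of at least 0.9, and their r ran from -0.50 to 0.92 with a median of 0.75. The differences of these 11 between POCD and control ran from -1.14 to 0.057, with a median of -0.28.

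Relative to these corner spots mmu_circRNA_45921 was at -0.31, 0.14 and -0.45 in POCD and at 0.77, 0.63 and 1.002 in control. The difference was then -1.01 (SE 0.47), with the nearest arrays of the 2 groups 0.50 apart. This scale was chosen after seeing the data. The share of all probes whose groups do not overlap on it was not counted, so that gap has no background to compare with. The part that the behaviour of bright spots has in the difference of mmu_circRNA_45921 was not tested.

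The 14 circRNA control probes of the array, so called in their identifiers, moved less. Their differences ran from -0.47 to 0.42 with a median of -0.24, and none reached a fold change of 1.5. Their r with mmu_circRNA_45921 ran from -0.93 to 0.83, with a median of 0.69. The brightest of them, with between 6 and 10 usable spots per array, was at 6.48, 6.18 and 6.07 in POCD and at 6.65, 6.24 and 6.69 in control, a difference of -0.28. Its mean level of 6.38 lay below the 7.31 of mmu_circRNA_45921, and it varied less over the arrays. Relative to the median of the 14, mmu_circRNA_45921 differed by -1.49 (SE 0.36), and POCD 2 was then above control 2.

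The surroundings of the spot were not used to choose the circRNA and were tested. Its local background, the median of the pixels around it, was 20, 20 and 18 in POCD and 24, 25 and 18.5 in control, a log2 difference of -0.21 (exact permutation test, two-sided, p = 0.30, where 0.10 is the smallest p that 3 against 3 allows). The mean background, a measure added after seeing the data, was 19.6, 19.7 and 19.6 in POCD and 24.8, 25.9 and 25.0 in control. It did not overlap between the groups (exact permutation test, two-sided, p = 0.10). The share of spots whose mean background does not overlap was not counted. The spot's background was marked as an outlier on the 3 control arrays and on none of the POCD arrays. Of the 14236 circRNA spots, 214, 162 and 223 had this mark in POCD and 68, 109 and 369 in control. Among the 100 brightest it was 6, 13 and 7 in POCD and 10, 9 and 14 in control. The median background was at most 0.112% of the signal of the spot, so these differences are small beside those of the signal.

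The 7 circRNA spots that touch the spot of mmu_circRNA_45921 were on average nearly level between the groups. Their mean scaled level differed by -0.0027 between the groups (exact permutation test, two-sided, p = 1.0), with 2 lower and 5 higher in POCD and single differences from -0.75 to 0.47. Over the 106 circRNA spots up to 5 rows and columns away the mean was lower in POCD by a log2 difference of -0.085 (exact permutation test, two-sided, p = 0.10, the smallest possible), with 55 lower and 51 higher. Over the 20 spots up to 2 rows and columns away it was -0.023 (exact permutation test, two-sided, p = 0.50).

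**Figure D5:**
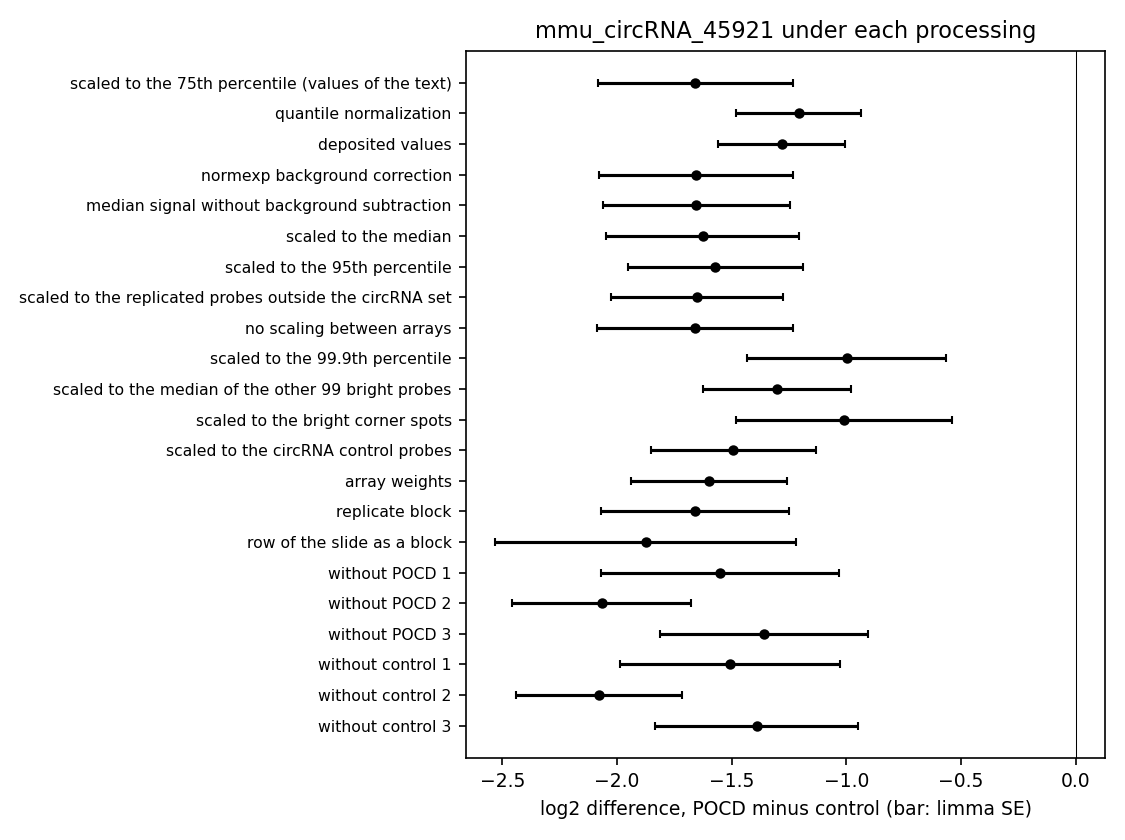
Log2 difference of mmu_circRNA_45921, POCD minus control (x axis, bar: SE from limma), under the processing used in the text and 21 alternatives (y axis). All values lie below 0, between -2.08 and -0.9988, on the same arrays that chose the probe.

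The difference of mmu_circRNA_45921 was negative under each of 21 other ways of processing, between -2.08 and -0.9988. The probe was chosen for its difference on these same arrays, so the constant sign follows largely from that choice. The smallest difference was found with a percentile near the top of each array as the reference, where the brightest probes set the scale. The largest was found without control 2. Without scaling, and with scaling to the median of each array or to the circRNA control probes, POCD 2 was above control 2 and the groups overlapped. With slide row added to the fit as a block it was -1.88 (SE 0.66), a value that rests on POCD 1 alone against the controls, since POCD 2 and POCD 3 lay in a row without control arrays.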

How the data were processed

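Total RNA of the hippocampus was labelled with Cy3 and hybridized to a 1-colour circRNA array. The authors deposited, per array, spot intensity from Agilent Feature Extraction version 11.0.1.1 (named in the submitters' processing notes), on a linear scale and not normalized between arrays. The authors also deposited log2 values for 14236 circRNA probes, whose normalization is not given in the sources used here. Samples were grouped by their treatment label. Uneven and outlier spots, as marked by the scanner software, were dropped. Levels are log2 intensity minus the array's own 75th percentile over its circRNA probes. Probes well above background on at least 3 arrays were fitted with lmFit and eBayes of limma version 3.58.1, run under R version 4.3.3, after a test on simulated data. Groups of 3 arrays limit the precision. The labels do not say more of the replicates than 6 mice, so p-values measure the spread between these samples.

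The circRNA, the lists and the tests were chosen with earlier results of these data known. Probes were named in the text if they are in the study's list, among the 3 most like mmu_circRNA_45921, or next to it in mean signal; of the unnamed ones at most 2 identifiers are printed. Likeness is a Pearson r of at least 0.9 over 6 arrays, among the 100 brightest probes. Alternatives were other background corrections, scalings, filters, tests and blocks, and each array left out in turn. Plots were drawn with matplotlib version 3.10.9.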

Additional observations from a re-analysis of the deposited data

How the results depend on the processing

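The difference of mmu_circRNA_45921 was negative under all 21 alternatives, and without each array in turn it was -2.08 (without control 2) to -1.36 (without POCD 3). That sign follows largely from the choice of the probe on these arrays. Scaling to a percentile near the top, to the other bright probes, to the corner spots and to the circRNA control probes was chosen after seeing the data. So was the mean background at the spot. Same-numbered arrays were treated as unpaired (correlations of their deviations 0.011, -0.55 and -0.23), since the labels do not say whether they are pairs. With the replicate number as a block the difference was -1.66 (SE 0.41). In this balanced layout such a block can change the SE only, so the equal difference says nothing on pairing. Probes lower in POCD at the fold and unadjusted p numbered 338 (221 higher) in the deposited values, 295 (115) with normexp, 420 (179) without background subtraction, 165 (94) with the methods' t-test and 36 (88) with that test on the deposited values, against 682 (257). Without one array they numbered 400 (without control 3) to 1303 (without control 2). Past the adjusted p were 592 with array weights and 0 to 560 without one array (560 without control 2). Lower without overlap were 890 with the replicated probes as scale, 787 without scaling and 1698 to 3758 without one array, with 2653 without POCD 1, 2523 without POCD 2 and 3758 without control 2, against 1546. With an array fewer, groups separate more easily and a high r is more easily reached. Counts without one array are therefore not on a par with those of all arrays. Bright probes like mmu_circRNA_45921 numbered 5 with quantile normalization, 5 in the deposited values, 15 with the replicated probes as scale, 7 by Spearman correlation, 19 of the 50 brightest and 21 to 52 without one array (52 without POCD 1, 46 without control 2), against 30. The median difference of the bright probes was 0.081 with quantile normalization and 0.041 in the deposited values. The difference of the mean level of the spots touching mmu_circRNA_45921 was -0.042 to 0.0204 without one array. Causes were not tested.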
